A study of Mus musculus with 6 samples.

Results

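The late neutrophil granule genes are 10 genes whose products fill the later granules or the cytosol of maturing neutrophils. They were taken by name (*S100a8*, *S100a9*, *Ltf*, *Camp*, *Ngp*, *Lcn2*, *Mmp8*, *Mmp9*, *Chil3* and *Cd177*) from a table of read counts for 54838 genes, and each of the 10 names matched 1 gene. The counts come from I1DN cells, a mouse acute myeloid leukemia (AML) that the study made by transducing hematopoietic stem and progenitor cells of fetal liver with IDH1R132H, DNMT3AR882H and NrasG12D. Both groups carried all of these alleles on a C57BL/6 background. Frozen leukemic cells were thawed and grown in sublethally irradiated Ptprca mice, a congenic strain whose blood cells can be told from the donor's by their surface Cd45. There were 3 mice given vehicle (Vehicle 1 to 3) and 3 given AG636 (AG636 1 to 3), an inhibitor of DHODH, an enzyme of pyrimidine synthesis, at 100 mg/kg by mouth b.i.d. The study's text gives the length of treatment differently in different places, and it is not stated here. Leukemic cells of bone marrow and spleen were sorted for *Kit*, a marker of immature cells, and for low or absent CD11b, the myeloid integrin encoded by *Itgam*, so these are cells chosen for an immature surface. The model is a single leukemia made by gene transfer, the host keeps some blood cells of its own, and the ages of the mice were not given. The comparison asks how transcripts of this leukemia changed when DHODH was inhibited.

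Neutrophils build their granules in sequence as they mature. Primary granules are filled at the promyelocyte stage with proteins such as myeloperoxidase and elastase, secondary granules later with lactoferrin, cathelicidin and lipocalin, and tertiary granules later still with gelatinase, while the S100 proteins gather in the cytosol. The transcription factor C/EBPε is required for the transcription of secondary granule genes, which are therefore commonly read as marks of a cell that has passed the promyelocyte stage.

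*Camp*, *Ngp* and *Ltf* lie together on chromosome 9, within 1195 kb from 109847379 to 111042767 of GRCm38, and *S100a8* and *S100a9* lie next to each other within 26.7 kb on chromosome 3, from 90668978 to 90695721, with 0 other genes of the table between them. Of the other genes between *Camp* and *Ltf*, 16 were tested and 0 were called higher or lower with AG636 by the test used below, and their median log2 fold change was 0.17. The 250 bases before the RefSeq transcription start of each gene were searched on both strands for TTGCNNAA. These are letters bound by C/EBP factors, where N is any base. RefSeq windows of GRCm38.p6 were at hand for 9 of the 10 genes, and *Mmp9* had none. The letters were present in 5 of these 9 windows, those of *S100a9*, *Ngp*, *Ltf*, *Lcn2* and *Mmp8*, and in 9.56% of 32851 windows of the same length in the genome. They began 236 bases before the start in *S100a9*, 138 and 11 in *Ngp*, 75 in *Ltf*, 216 in *Lcn2* and 19 in *Mmp8*. AGGAAG, letters bound by ETS factors such as PU.1, was present on either strand in 6 of 9 windows against 29.5% of all windows, and TATAAA on the gene's own strand in 2 of 9 against 7.59%. None of these runs of letters contains another. A match in a window is a description of its sequence and was not tested as a binding site. The windows of *S100a9*, *Ngp* and *Ltf* are printed because they hold the C/EBP letters in genes called higher, and that of *Chil3* because it was the gene with the largest fitted change and holds none of them. Each runs 5′ to 3′ on the gene's strand with the C/EBP letters in capitals, and stops where the first annotated exon begins. They cover chr3:90695722-90695971 on the minus strand for *S100a9*, chr9:110419558-110419746 on the plus strand for *Ngp*, chr9:111019042-111019270 on the plus strand for *Ltf* and chr3:106167565-106167814 on the minus strand for *Chil3*.
S100a9: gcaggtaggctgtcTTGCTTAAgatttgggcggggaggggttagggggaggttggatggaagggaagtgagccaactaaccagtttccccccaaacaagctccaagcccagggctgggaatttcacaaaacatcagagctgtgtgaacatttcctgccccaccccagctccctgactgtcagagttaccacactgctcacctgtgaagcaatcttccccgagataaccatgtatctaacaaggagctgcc
Ngp: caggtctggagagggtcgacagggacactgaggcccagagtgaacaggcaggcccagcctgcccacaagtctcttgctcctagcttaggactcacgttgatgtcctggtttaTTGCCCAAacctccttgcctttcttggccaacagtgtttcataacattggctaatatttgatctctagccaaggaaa
Ltf: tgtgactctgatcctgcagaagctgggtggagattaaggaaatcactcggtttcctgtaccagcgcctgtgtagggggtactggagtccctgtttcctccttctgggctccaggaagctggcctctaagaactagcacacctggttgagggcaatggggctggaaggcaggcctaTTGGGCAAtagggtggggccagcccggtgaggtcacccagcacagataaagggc
Chil3: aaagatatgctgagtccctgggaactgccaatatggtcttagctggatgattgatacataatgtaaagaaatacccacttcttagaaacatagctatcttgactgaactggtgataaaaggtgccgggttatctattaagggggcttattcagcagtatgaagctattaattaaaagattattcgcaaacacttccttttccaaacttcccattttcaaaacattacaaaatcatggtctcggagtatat
The second match of *Ngp* lies in an annotated exon and is not printed. The window of *Lcn2* begins inside an annotated exon, with 197 of its 250 bases exonic, so none of it is printed. The TATAAA match of *S100a8* also lies in an annotated exon. These matches are included in the counts above.

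Libraries captured the end of each polyadenylated transcript, so that a count does not grow with gene length. Totals ran from 4634963 to 7906589 counts per sample, where 3 counts correspond to between 0.379 and 0.647 CPM (counts scaled to library size), a limit that covers counting error only. Library sizes were scaled by the TMM method. The late granule genes together took 0.102, 0.210 and 0.241% of the counts of Vehicle 1, 2 and 3 and 0.618, 0.333 and 0.312% of those of AG636 1, 2 and 3. These transcripts were therefore present in the sorted cells of every mouse, mostly as *S100a8* and *S100a9*, which made up between 76.0 and 89.0% of the 10 genes' counts. In bulk RNA, a change in the number of cells that express a gene and a change in the RNA per cell cannot be told apart.

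All 10 genes were higher on average with AG636, and 7 of them passed the threshold: *S100a9*, *Ltf*, *Camp*, *Ngp*, *Lcn2*, *Chil3* and *Cd177*. None was called lower. Of the 11092 genes tested, 21.3% were called, 10.3% higher and 11.0% lower, at a p under 0.05 from edgeR's quasi-likelihood F test, adjusted by the Benjamini-Hochberg method over all genes tested (called the edgeR adjusted p from here on). Of the genes called, 48.4% were higher, against 61.7% when library sizes were left unscaled. For the same 7 of the 10 genes, every AG636 mouse was above every Vehicle mouse, which was so for 20.5% of all genes tested. The median log2 fold change of the 10 genes was 1.22, that of all genes tested 0.03. Summed over the 10 genes, the level was 1074, 2165 and 2444 CPM in Vehicle 1, 2 and 3 and 6060, 3229 and 2992 CPM in AG636 1, 2 and 3. The ratio of the group means of this sum was 2.16, and the lowest AG636 mouse lay above the highest Vehicle mouse. AG636 1 had the highest sum and Vehicle 1 the lowest, and the ratio was 1.64 without AG636 1 and 1.76 without Vehicle 1. Calls fell to 4 of the 10 genes without Vehicle 2, where 500 of all genes were called higher against 1145 with all samples, and stayed between 5 and 7 when any other sample was left out. The number of genes called in either direction, 2367 with all samples, was 1217 without Vehicle 1, 1192 without Vehicle 2, 1235 without AG636 1 and 851 without AG636 3.

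**Figure D1:**
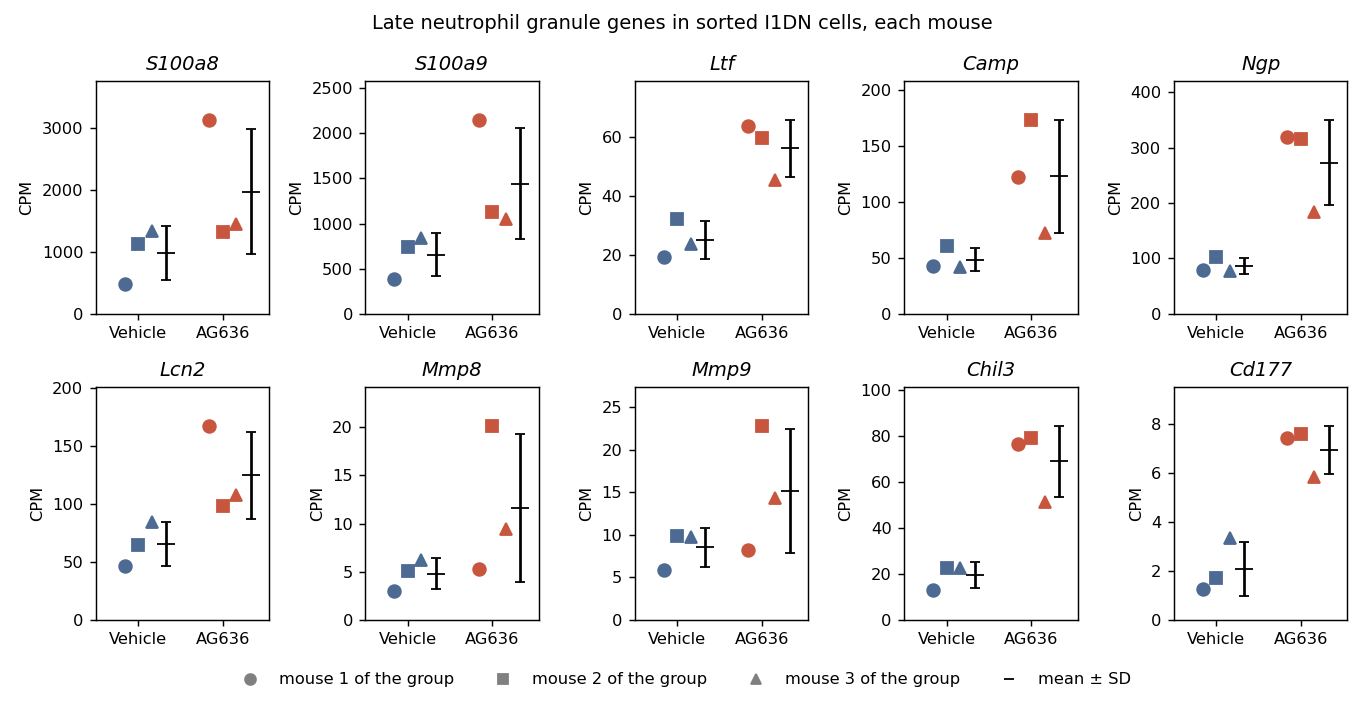
Level of each late granule gene in CPM (linear axis from 0) in the 3 Vehicle (blue) and 3 AG636 (red) mice, with the mean and SD of each group in black. Every AG636 mouse is above every Vehicle mouse for 7 genes, and the groups overlap for *S100a8*, *Mmp8* and *Mmp9*.

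*S100a8* and *S100a9* encode the subunits of calprotectin, a calcium- and zinc-binding complex that is the main cytosolic protein of neutrophils. *S100a8* was at 483, 1131.5 and 1334 CPM in Vehicle 1, 2 and 3 and at 3139, 1324 and 1453 CPM in AG636 1, 2 and 3. AG636 1 stood far above the rest, Vehicle 1 below it, and AG636 2 was just under Vehicle 3, so that the groups overlapped. Its log2 fold change was 1.005 (standard error 0.39, 95% interval from 0.15 to 1.86), which did not pass the threshold (edgeR adjusted p = 0.0872), and it was 0.50 without AG636 1 (edgeR adjusted p = 0.350). *S100a9* was at 382, 734 and 842 CPM in the Vehicle mice and at 2151, 1129 and 1049.7 CPM in the AG636 mice. The order of the mice was nearly that of *S100a8*, with AG636 1 again highest and Vehicle 1 lowest, but here the groups did not overlap. *S100a9* rose by a log2 fold change of 1.14 (standard error 0.32, edgeR adjusted p = 0.0304). This call depended on the outer mice, since the edgeR adjusted p was 0.108 without AG636 1, 0.0628 without Vehicle 1 and 0.0770 without Vehicle 2. There was between 1.17 and 1.58 times as much *S100a8* as *S100a9* in every mouse, and this ratio did not differ between the groups beyond its spread (mean 1.46 ± 0.17 with vehicle and 1.34 ± 0.15 with AG636, SD, n = 3, two-sided exact permutation p = 0.4, where 0.1 is the smallest that 3 against 3 allow).

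The secondary granule genes *Ngp*, *Camp* and *Ltf* were all called higher. *Ngp*, a cathelin-like protein of neutrophil granules on chromosome 9 from 110419747 to 110423012, was at 78.4, 103 and 76.2 CPM in the Vehicle mice and at 319, 316 and 184 CPM in the AG636 mice. AG636 1 and AG636 2 were nearly equal and AG636 3 was lower, yet still above each Vehicle mouse. Its log2 fold change was 1.67 (standard error 0.22), with the lowest adjusted p of the 10 genes (edgeR adjusted p = 0.00271). *Camp*, the cathelicidin precursor of an antimicrobial peptide, on chromosome 9 from 109847379 to 109849617, was at 42.1, 60.1 and 42.1 CPM in the Vehicle mice and at 122, 173 and 72.1 CPM in the AG636 mice. AG636 2 was the highest mouse here and AG636 3 lay only a little above Vehicle 2, without overlap. *Camp* rose by a log2 fold change of 1.34 (standard error 0.28, edgeR adjusted p = 0.0120). *Ltf*, the iron-binding lactoferrin, on chromosome 9 from 111019271 to 111042767, was at 19.2, 32.1 and 23.7 CPM in the Vehicle mice and at 63.7, 59.6 and 45.3 CPM in the AG636 mice. These were among the tightest AG636 values of the 10 genes, the highest mouse being 1.41 times the lowest. *Ltf* rose by a log2 fold change of 1.16 (standard error 0.21, edgeR adjusted p = 0.00731). *Ngp*, *Camp* and *Ltf* were called in all 6 fits that left out a sample.

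*Lcn2*, a lipocalin that binds bacterial siderophores, on chromosome 2 from 32384633 to 32388252, was at 46.7, 64.9 and 84.1 CPM in the Vehicle mice and at 167, 98.2 and 108 CPM in the AG636 mice. Within each group its order of mice was that of *S100a8*, with AG636 1 highest and AG636 2 lowest among the treated, but its groups did not overlap. *Lcn2* rose by a log2 fold change of 0.93 (standard error 0.24, edgeR adjusted p = 0.0248). The call was lost without Vehicle 1 (edgeR adjusted p = 0.0637), Vehicle 2 (0.0818), AG636 1 (0.0886) or AG636 3 (0.0505).

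The matrix metalloproteinases of the later granules were low and varied most among the treated mice. *Mmp8*, the neutrophil collagenase, was at 3.02, 5.08 and 6.25 CPM in the Vehicle mice and at 5.29, 20.1 and 9.41 CPM in the AG636 mice. AG636 2 was far above the rest and AG636 1 lay within the Vehicle range. The log2 fold change of 1.28 (standard error 0.46) did not pass the threshold (edgeR adjusted p = 0.0731). Without AG636 1 it was 1.62 and passed (edgeR adjusted p = 0.0412), and without AG636 2 it was 0.63 (edgeR adjusted p = 0.276). *Mmp9*, gelatinase B of tertiary granules, was at 5.86, 9.91 and 9.79 CPM in the Vehicle mice and at 8.25, 22.8 and 14.3 CPM in the AG636 mice. It had the same order of treated mice as *Mmp8*, again with AG636 1 inside the Vehicle range. Its log2 fold change was 0.82 (standard error 0.36, 95% interval from 0.02 to 1.63, edgeR adjusted p = 0.125), the smallest of the 10 genes, and without AG636 2 it was 0.41 (edgeR adjusted p = 0.412).

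*Chil3* and *Cd177* had the largest fitted changes. *Chil3*, the chitinase-like protein Ym1, on chromosome 3 from 106147554 to 106167564, was at 12.8, 22.4 and 22.7 CPM in the Vehicle mice and at 76.6, 78.9 and 51.2 CPM in the AG636 mice. The lowest AG636 mouse stood well above the highest Vehicle mouse. The log2 fold change was 1.83 (standard error 0.25, edgeR adjusted p = 0.00298), which ranked 69 from the top among the 11092 genes tested. *Chil3* has a close paralog, *Chil4*, to which 1 count was assigned over all samples against 1371 for *Chil3*, and how reads that fit several genes were counted is not given in the sources used here. *Cd177*, a glycoprotein of the neutrophil surface and of secondary granule membranes, was at 1.24, 1.69 and 3.33 CPM in the Vehicle mice and at 7.41, 7.60 and 5.83 CPM in the AG636 mice. These levels rest on 7, 13 and 16 reads with vehicle and 35, 37 and 31 reads with AG636, and Vehicle 3 was the highest control. *Cd177* rose by a log2 fold change of 1.76 (standard error 0.39, edgeR adjusted p = 0.0138), and the call was lost without Vehicle 2 (edgeR adjusted p = 0.0605). *Cd177* passed the filter on low counts only through the AG636 mice, whereas the other 9 genes reached its limit of 2.01 CPM in all Vehicle mice too, and the median log2 fold change of those 9 was 1.16.

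**Figure D2:**
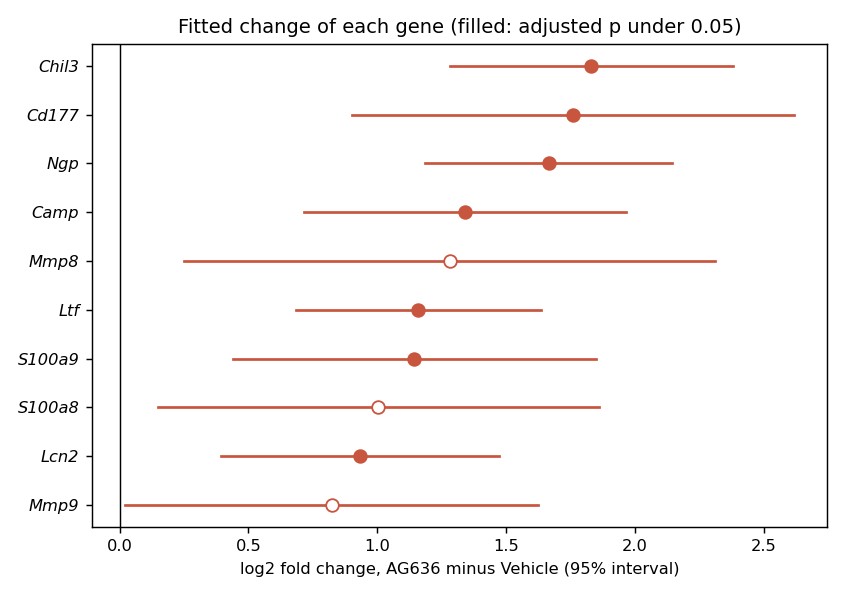
Fitted log2 fold change of each late granule gene, AG636 minus Vehicle, with its 95% interval as a line, from the edgeR fit of 3 against 3 mice. Filled points passed an adjusted p of 0.05. All 10 intervals lie above 0, from *Mmp9* at 0.82 to *Chil3* at 1.83, but they are not adjusted for the number of genes tested. By the same edgeR quasi-likelihood F test, 4112 of all 11092 genes tested had an unadjusted p under 0.05.

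The treated mice did not raise these genes in the same proportion. AG636 1 was the highest treated mouse for *S100a8*, *S100a9*, *Ltf*, *Ngp* and *Lcn2*, and AG636 2 for *Camp*, *Mmp8*, *Mmp9*, *Chil3* and *Cd177*. In AG636 1, *S100a8* was 3.19 times and *S100a9* 3.30 times the mean of the Vehicle mice, while *Mmp8* was 1.11 times and *Mmp9* 0.969 times that mean. In AG636 2 the reverse held, with *S100a8* at 1.35 times and *Lcn2* at 1.51 times the Vehicle mean against 4.21 times for *Mmp8* and 3.60 times for *Camp*. AG636 3 was the lowest treated mouse for 6 of the 10 genes, yet it alone lay above the highest Vehicle mouse for all 10, against 8 genes in AG636 1 and 9 in AG636 2. Among the controls, Vehicle 1 was the lowest for 8 genes. The lowest ratio to the Vehicle mean in any treated mouse was 2.79 for *Cd177*, 2.65 for *Chil3* and 2.14 for *Ngp*. Next of the 10 genes was *Ltf*, at 1.81.

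**Figure D3:**
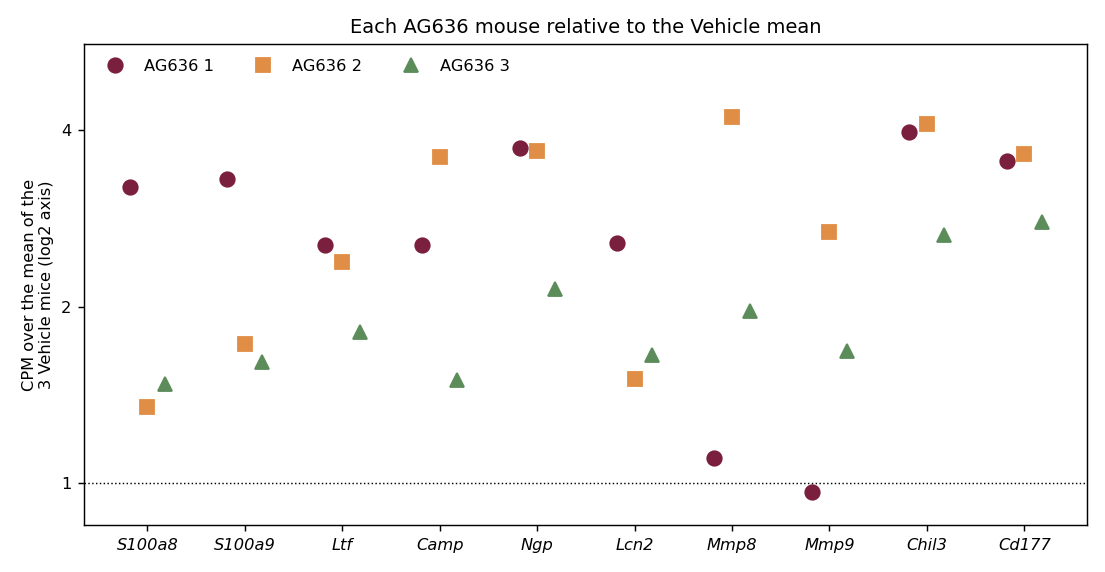
CPM of each late granule gene in each AG636 mouse divided by the mean of the 3 Vehicle mice, on a log2 axis, with the dotted line at a ratio of 1. AG636 1 is high for *S100a8*, *S100a9* and *Lcn2* and near 1 for *Mmp8* (1.11) and *Mmp9* (0.969), and AG636 2 shows the opposite order.

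The 30 other genes listed for late neutrophil maturation include some of myeloid cells and phagocytes more widely, such as *Itgam* and *Cybb*. Of the 30, 28 were tested, of which 13 were called higher, 0 lower and 15 not called, against 10.3% of all genes tested called higher. Their median log2 fold change was 1.11, from -0.06 for *Csf3r*, the G-CSF receptor, to 1.96 for *Ifitm6*. Those with the lowest adjusted p were *Clec4d*, a C-type lectin receptor (log2 fold change 1.53, edgeR adjusted p = 0.00321), *Itgb2*, the beta subunit of CD11b/CD18 (1.08, 0.00329), *Cybb*, the catalytic subunit of the phagocyte oxidase (1.72, 0.00408), and *Cxcr2*, a chemokine receptor of mature neutrophils (1.12, 0.00408). *Ly6g*, the surface marker of mouse neutrophils, was at 1.60, 1.43 and 1.87 CPM in the Vehicle mice and at 3.39, 6.37 and 5.08 CPM in the AG636 mice. Its groups did not overlap, although its level was low in every mouse, and it passed the filter on low counts only through the AG636 mice (log2 fold change 1.60, edgeR adjusted p = 0.0169). Of the 28 genes tested, 4 passed the filter without all Vehicle mice reaching its limit, *Ly6g* and *G0s2*, which were called, and *Fpr2* and *Mmp25*, which were not. The number called was 7 without Vehicle 1, 6 without Vehicle 2, 8 without AG636 1 and 8 without AG636 3.

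Of 15 primary granule genes, which are expressed earlier in maturation, 13 were tested and 1 was called higher, against 10.3% of all genes tested. It was *Srgn*, the proteoglycan core protein that packs granule contents (log2 fold change 0.73, edgeR adjusted p = 0.0141). None was called lower, and the median log2 fold change was 0.32. *Srgn* was not called without Vehicle 2 or without AG636 1, when 0 of these genes were, and 2 were called without Vehicle 3 and 3 without AG636 2. *Mpo*, myeloperoxidase, was at 1248, 2763 and 2762 CPM in the Vehicle mice and at 2015, 616 and 1698 CPM in the AG636 mice. The groups overlapped and AG636 2 was the lowest of all 6 mice (log2 fold change -0.65, edgeR adjusted p = 0.266). *Elane*, neutrophil elastase, was at 83.3, 171 and 196 CPM in the Vehicle mice and at 565, 105 and 266 CPM in the AG636 mice. Here AG636 1 was highest and AG636 2 lay within the Vehicle range (log2 fold change 1.05, edgeR adjusted p = 0.152). *Ctsg*, cathepsin G, had a log2 fold change of 0.34 (edgeR adjusted p = 0.548). AG636 2 was the lowest treated mouse for 11 of the 13 primary granule genes tested, whereas it was the highest for 5 of the late granule genes. Per 100 CPM of *Mpo*, *Elane*, *Prtn3* and *Ctsg* summed, the 8 late granule genes other than *S100a8* and *S100a9* came to 11.1, 7.75 and 6.32 CPM in the Vehicle mice and to 17.4, 62.7 and 15.4 CPM in the AG636 mice. Every AG636 mouse was above every Vehicle mouse in this ratio, and AG636 2 was far above the others. The means were 8.40 ± 2.47 and 31.8 ± 26.8 (SD, n = 3), and the two-sided exact permutation p was 0.1, the smallest that 3 against 3 mice allow. Of the primary granule genes in this sum, *Mpo* alone was lower on average with AG636. Relative to *Elane* alone, *Camp* was at 0.357 ± 0.146 with vehicle and 0.714 ± 0.815 with AG636 (SD, n = 3, two-sided exact permutation p = 0.8). *Ngp* relative to *Elane* was at 0.644 ± 0.278 and 1.43 ± 1.38 (two-sided exact permutation p = 0.6). The groups overlapped in both of these ratios to *Elane*.

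**Figure D4:**
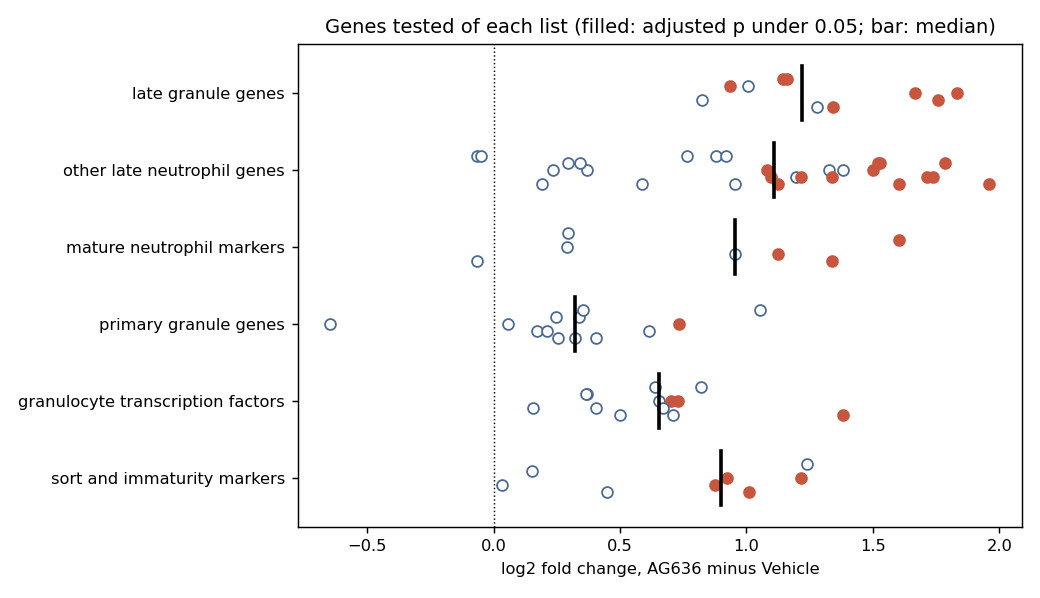
Fitted log2 fold change, AG636 minus Vehicle, of every gene tested in 6 lists, 1 point per gene, with the list's median as a bar, filled where the adjusted p was under 0.05. Medians are 1.22 for the late granule genes, 1.11 for other late neutrophil genes, 0.95 for mature neutrophil markers, 0.32 for primary granule genes, 0.65 for granulocyte transcription factors and 0.90 for sort and immaturity markers. The lists share genes, and every mature neutrophil marker shown but *Il1b* is also among the other late neutrophil genes. The sort and immaturity markers include *Itgam*, whose product was to be low or absent in the sort.

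Transcription factors of granulocyte development were called higher in 3 of the 13 genes tested and lower in 0, against 10.3% and 11.0% of all genes tested, with a median log2 fold change of 0.65. Those called were *Klf5*, a Krüppel-like factor (log2 fold change 0.70, edgeR adjusted p = 0.0111), *Stat3*, which signals from the G-CSF receptor (0.73, 0.0135), and *Id2*, an inhibitor of E proteins (1.38, 0.0142). *Cebpe*, which encodes C/EBPε, was at 14.8, 40.4 and 48.9 CPM in the Vehicle mice and at 64.1, 15.0 and 55.3 CPM in the AG636 mice. AG636 2, the mouse with the most *Camp*, was at the level of Vehicle 1, the lowest control. The log2 fold change of *Cebpe* was 0.37 (edgeR adjusted p = 0.624). Without Vehicle 2, 1 of these transcription factors was called, and 7 were without AG636 2.

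Receptors, partners and inhibitors of the proteins encoded by the late granule genes were mostly low, and 10 of 18 were tested. *Itgam* and *Itgb2*, whose products form the integrin that associates with *Cd177* on neutrophils, were called higher, and *Cd44*, a hyaluronan receptor that can hold gelatinase B at the cell surface, was called lower. Among all genes tested, 10.3% were called higher and 11.0% lower. *Cd44* was at 220, 175 and 198 CPM in the Vehicle mice and at 143, 118 and 132 CPM in the AG636 mice, without overlap (log2 fold change -0.59, edgeR adjusted p = 0.0138). The Toll-like receptor for *S100a8* and *S100a9*, *Tlr4*, was at 1.07, 2.22 and 3.54 CPM in the Vehicle mice and at 4.44, 5.96 and 4.33 CPM in the AG636 mice. It was at or below 6 CPM in each mouse, passed the filter only through the AG636 mice and did not pass the threshold (log2 fold change 1.12, edgeR adjusted p = 0.0802). The same held for *Ager* and *Fpr2* as to filter and threshold. *Cd14*, too low to be tested, was at 3.38, 1.96 and 5.62 CPM in the Vehicle mice and at 1.27, 0.616 and 1.88 CPM in the AG636 mice. *Ly96*, also too low to be tested, averaged 1.31 CPM with vehicle and 1.01 CPM with AG636.

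The sort and the presence of other cells were checked by their markers. *Kit* was at 43.0, 31.7 and 40.8 CPM in the Vehicle mice and at 46.1, 37.2 and 44.6 CPM in the AG636 mice. These ranges overlapped (log2 fold change 0.15, edgeR adjusted p = 0.550). *Itgam*, the gene of the integrin used to keep mature cells out, was at 12.1, 18.2 and 26.9 CPM in the Vehicle mice and at 59.9, 31.2 and 41.0 CPM in the AG636 mice. It rose without overlap of the groups and, like *S100a8* and *S100a9*, was highest in AG636 1 and lowest in Vehicle 1 (log2 fold change 1.21, edgeR adjusted p = 0.0219). Of 8 sort and immaturity markers tested, 4 were called higher, against 10.3% of all genes tested. They were *Itgam*, *Fcgr3*, *Meis1* and *Sox4*, of which *Meis1* and *Sox4* are transcription factors of immature cells (log2 fold change 1.01, edgeR adjusted p = 0.00794, and 0.92, 0.0323). Besides *Kit*, those tested but not called were *Myb* (0.03, 0.878), *Cd34* (0.45, 0.161) and *Ly6a* (1.24, 0.125). *Ly6a* was at 11.0, 59.2 and 17.7 CPM in AG636 1, 2 and 3. The number of sort and immaturity markers called higher was 1 without Vehicle 1, Vehicle 2 or AG636 1 and 2 without AG636 3. Of 7 mature neutrophil markers tested, 3 were called higher, against the same 10.3%. All of these markers but *Il1b* are also among the other late neutrophil genes above. The 3 called were *Cxcr2*, *Ly6g* and *Retnlg*, already counted there, and 1 of the 7 was called without Vehicle 1. The summed level of the mature neutrophil markers ran from 50.1 to 72.5 CPM with vehicle and from 103 to 127 CPM with AG636. Of 6 macrophage markers tested, *Cd68* and *C1qb* were called higher, again against 10.3% of all genes tested. The summed level of all 8 macrophage markers ran from 41.8 to 55.0 CPM with vehicle and from 113 to 130 CPM with AG636. Most of the difference in that sum came from *Cd68*, at 19.4, 29.6 and 33.7 CPM in the Vehicle mice and at 91.2, 67.0 and 86.7 CPM in the AG636 mice, and the sum was highest in AG636 3. *Csf3r* and *Vcam1* had log2 fold changes of -0.06 and -0.10. The summed levels of mature neutrophil and macrophage markers did not overlap between the groups, and the part of such cells in the result was not tested. Of the B cell markers 2 and of the T and NK cell markers 1 were tested, and 0 were called. *Ms4a1*, *Cd3e* and *Cd3g* were each under 1 CPM in every mouse, whereas *Igkc*, an immunoglobulin light chain, ran from 12.5 to 66.6 CPM, *Cd79b*, of the B cell receptor, from 5.33 to 19.0 CPM and *Nkg7*, of cytotoxic granules, from 191 to 491 CPM. *Igkc* was highest in AG636 2, and the part of these cells in the result was not tested. Erythroid markers summed to between 1715 and 4698 CPM with vehicle and between 1921 and 3388 CPM with AG636. Their highest sum was in Vehicle 1, the control with the least *S100a8* and *S100a9*, and their part in the result was not tested. Of the stroma and endothelium markers, 1 was tested and not called, and *Cdh5* and *Lepr* had 0 counts.

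The genes whose levels followed those of the late granule genes most closely over the 6 mice were *Rgs14*, a regulator of G protein signaling, *Il18r1*, a subunit of the interleukin-18 receptor, *Jrkl*, *Sh3bgrl* and *Bbx*. Their Pearson correlations with the mean of the 10 genes' standardized log2 CPM were 0.999, 0.995, 0.995, 0.992 and 0.991. These are the 5 highest of 11092 genes tested in 6 libraries that share the group difference, and they are given as a description. *Rgs14* was at 9.06, 13.7 and 14.0 CPM in the Vehicle mice and at 25.2, 25.3 and 19.4 CPM in the AG636 mice. Its groups did not overlap, with Vehicle 1 lowest and AG636 3 the lowest of the treated mice (log2 fold change 0.92, edgeR adjusted p = 0.0197). When deviations from the group means were used instead, 3 of the 5 highest genes, *Rgs14*, *Jrkl* and *Il18r1*, were among those listed.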

How the data were processed

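RNA of sorted I1DN cells from 3 Vehicle and 3 AG636 mice was analysed, with groups and replicate numbers from the labels. The authors deposited counts of reads per gene and sample without normalization. According to the submitters' processing notes they used cutadapt 1.9.1, HISAT2 2.0.4 and Subread 1.5.0-p3 (featureCounts) with GRCm38. Whether strand was used, and what was done with multi-mapping reads, is not given in the sources used here. The table holds 54838 genes, of which 54723 have a symbol in GENCODE M21, and the 10 late granule genes have the same coordinates there. Exons of these 10 genes overlap no exon of another gene of the table, and every column of sample values was used (0 left out).

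In R 4.3.3, genes were kept with filterByExpr of edgeR 4.0.16 (minimum count 10, minimum total 15), library sizes were scaled by TMM, and AG636 was compared with Vehicle by edgeR's quasi-likelihood F test over all genes kept, at a Benjamini-Hochberg adjusted p of 0.05. The standard error is the log2 fold change divided by the root of F. Alternatives were DESeq2 1.42.0, limma-voom (limma 3.58.1), other scalings and filters, a replicate block, an adjusted p of 0.01 and leaving out each sample. Correlations used log2(CPM + 1). No pair of replicates differed by as little as sampling noise, so each was counted once. With totals from 4634963 to 7906589 counts, log2 fold changes had a median standard error of 0.20.

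The 10 genes, the other lists, the motifs and the tests were chosen with earlier results of these data known. Named are the 10 genes, up to 4 called genes of each list with the lowest adjusted p, *Kit*, *Itgam*, *Ly6g*, *Cebpe*, *Elane*, *Mpo* and *Ctsg*, and the 5 genes most like the 10. The other genes were named after their values were seen, and some marker genes are not reported here. Neither protein sequences nor the promoter of *Mmp9* were used here.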

Additional observations from a re-analysis of the deposited data

How the results depend on the processing

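All 10 late granule genes kept their direction under every alternative in which they were fitted. Of their values under single alternatives, 123 stayed on their side of the threshold, 11 lost a call and 5 gained one. Calls among the 10 genes numbered 7 with all samples, 3 at an adjusted p under 0.01, and between 4 and 7 when a sample was left out. They numbered 10 without a filter on low counts, where *S100a8* (edgeR adjusted p = 2.36e-12), *Mmp8* and *Mmp9* were also called, and the cause was not tested. Among all genes, 554 were called at an adjusted p under 0.01, and leaving out a sample gave between 851 and 2313 in either direction, between 399 and 1074 higher and between 452 and 1298 lower, with fewer samples in each fit. Other late neutrophil genes called higher numbered 21 without a filter and between 6 and 19 when a sample was left out. Primary granule genes called higher numbered 2 with DESeq2, 4 without a filter and between 0 and 3 when a sample was left out, and the cause was not tested. DESeq2 did not call *S100a9* (adjusted p = 0.0621) and called *Mmp8* (0.0356). Deviations of same-numbered mice from their group means had correlations of -0.07, -0.19 and 0.24. Those of differently numbered mice ran from -0.41 to 0.39. With 3 mice per group these values cannot settle whether the labels' numbers pair the mice, and the main comparison used no pairing. A replicate block gave 5 calls among the 10 genes, without *S100a9* (edgeR adjusted p = 0.0741) and *Lcn2* (0.0501), and 1961 among all genes. Depth limits *Cd177* most, with between 7 and 16 counts per Vehicle mouse.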

Other observations

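Some markers of other lineages also differed in these sorted cells. Of 5 megakaryocyte markers tested, 2 were called higher with AG636, against 10.3% of all genes tested. They were *Gp9*, a subunit of the platelet receptor for von Willebrand factor, and *Itga2b*, the integrin of megakaryocytes and some progenitors. *Gp9* was at 21.5, 24.5 and 18.3 CPM in Vehicle 1, 2 and 3 and at 41.5, 33.3 and 56.1 CPM in AG636 1, 2 and 3, without overlap (log2 fold change 1.02, edgeR adjusted p = 0.0123). In this gene AG636 3, the treated mouse with the lowest level of 6 late granule genes, was the highest. *Itga2b* had a log2 fold change of 0.73 (edgeR adjusted p = 0.0346), and *Pf4*, the platelet factor of the same lineage, one of 0.25 (edgeR adjusted p = 0.480). *Ppbp*, another platelet chemokine, lay lower in every AG636 mouse than in every Vehicle mouse but did not pass the threshold (log2 fold change -0.74, edgeR adjusted p = 0.0534). Of 5 mast cell and basophil markers tested, 1 was called higher, against 10.3% of all genes tested. It was *Cpa3*, carboxypeptidase A of mast cells (log2 fold change 0.96, edgeR adjusted p = 0.0423), which too was highest in AG636 3, at 931 CPM. The other 4 had log2 fold changes of 0.57 for *Ms4a2*, 0.22 for *Mcpt8*, -0.09 for *Prss34* and -0.12 for *Fcer1a*, and none of these passed the threshold.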
